A study of Mus musculus with 12 samples.

Results

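The genes described here are 40 genes that act in G2 and mitosis, taken as a written list of symbols, which are 40 of the 35602 gene symbols in the count table. All 40 had enough counts to be tested, so none was lost to the filter on low counts. RNA sequencing had been done on mouse embryonic fibroblasts (MEFs), connective tissue cells cultured from embryos, kept in high-glucose DMEM with fetal bovine serum. There were 4 groups of 3 libraries: MEFs with an Ezh2a mutation, the wild type of the same litters, MEFs with an Ezh2b mutation, and the wild type of those litters. EZH2 is the histone methyltransferase of Polycomb repressive complex 2, and the title of the study speaks of EZH2 isoforms that arise through cryptic splice sites. The labels do not define Ezh2a and Ezh2b further. They give neither the sequence change of a mutation nor whether the animals carried 1 or 2 copies of it, and they do not give the embryo stage, the passage number or whether the libraries of a group are separate embryos or cultures. The p-values below therefore measure the spread between these libraries, which may be technical.

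During G2 a cell builds up cyclin B and CDK1, whose activation drives entry into mitosis. The chromosomes are then condensed, attached to the spindle at kinetochores and held until the spindle checkpoint is satisfied, after which the anaphase promoting complex tags cyclins and securin for destruction and the cell divides. Transcripts of these genes accumulate late in the cycle, and many of their promoters are known to carry a cell cycle genes homology region (CHR), the element through which MuvB complexes hold the genes off in resting cells and, with B-MYB and FOXM1, switch them on in G2, often beside CCAAT boxes bound by NF-Y. In fibroblast cultures the summed level of such transcripts is commonly used as a readout of how many cells are dividing. In bulk RNA, fewer cells in G2 and mitosis and less of these RNAs per cell cannot be told apart.

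The promoters of 4 members are printed to show what these genes have in common outside the expression data. Sequences are from RefSeq on GRCm38.p6, read 5′ to 3′ on the strand of the gene, from 150 bases before to 30 bases after the annotated start. Capitals mark TTTGAA, the letters of the CHR, and CCAAT, the NF-Y box, which reads ATTGG where it lies on the other strand. Ect2 at chr3:27153825-27154004 (minus strand), Aspm at chr1:139454623-139454802 (plus strand) and Cenpf at chr1:189688057-189688236 (minus strand) are shown because, of the members with both strings in the stretch, these had the largest difference between the mutants in the expression data. Cdk1 at chr10:69352883-69353062 (minus strand) is shown as the central kinase and was added after the values were seen.
Ect2: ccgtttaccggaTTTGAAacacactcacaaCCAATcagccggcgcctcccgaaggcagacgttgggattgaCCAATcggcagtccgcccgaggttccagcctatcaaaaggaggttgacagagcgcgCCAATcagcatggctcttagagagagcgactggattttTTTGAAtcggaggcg
Aspm: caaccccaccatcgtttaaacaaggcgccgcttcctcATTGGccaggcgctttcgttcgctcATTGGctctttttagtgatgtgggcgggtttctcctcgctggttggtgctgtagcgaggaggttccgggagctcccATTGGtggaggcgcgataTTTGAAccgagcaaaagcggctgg
Cenpf: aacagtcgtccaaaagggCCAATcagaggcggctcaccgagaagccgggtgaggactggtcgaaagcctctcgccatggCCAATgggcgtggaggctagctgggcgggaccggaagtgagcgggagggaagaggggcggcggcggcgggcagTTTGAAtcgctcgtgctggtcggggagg
Cdk1: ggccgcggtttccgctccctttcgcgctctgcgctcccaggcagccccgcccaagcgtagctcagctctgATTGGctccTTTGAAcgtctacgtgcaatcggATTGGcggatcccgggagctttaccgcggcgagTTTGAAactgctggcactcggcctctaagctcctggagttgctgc
In each of these stretches a TTTGAA lay close to the transcription start, with 2 or 3 CCAAT boxes further upstream. The Ect2 and Cdk1 stretches each held a second TTTGAA. For Ect2 the stretch belongs to one of 2 annotated starts that lie 24 bases apart. That start was chosen because its stretch holds 2 TTTGAA, so the second match there was fixed by the choice. At the other start the nearest TTTGAA begins at base 40 after it, beyond the stretch that would be printed.

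RefSeq promoter windows of 300 bases, 250 of them upstream of the start, were found for 33 of the members, which have 35 windows because Ect2 and Prc1 have 2 starts each. Ccna2, Cdc25c, Kif20a, Aurkb, Tpx2, Dlgap5 and Smc4 had no window. The windows were searched on both strands for the letters of the CHR, for the NF-Y box and for the E2F-like string GGCGGGA. The CHR letters were in 82.9% of the members' windows, against 12.6% of the 15669 windows of all tested genes. Those windows belong to 12238 of the 15708 tested genes and include the members' own. CCAAT was in 80.0% of the members' windows, against 37.4% over all tested genes, and both strings together were in 71.4%, against 5.14%. GGCGGGA, the string better known from S phase promoters, was in 31.4%, against 19.1%. In 25 members a TTTGAA began within 50 bases of the start. Both strings were found in 23 members, among them Plk1, Cdc20, Bub1b, Top2a and Mki67. Neither was found in the windows of Nusap1, Nuf2 and Birc5, which says only that these letters are absent from those 300 bases. In other G2 and mitosis genes outside the 40, both strings were in 41.1% of 56 windows, in G1 cyclins, kinases and E2F factors in 21.4% of 14, in DNA replication genes in 6.12% of 49, and in cell-cycle inhibitors in 0 of 17. A match is a description of the sequence and not a measured binding site.

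**Figure D1:**
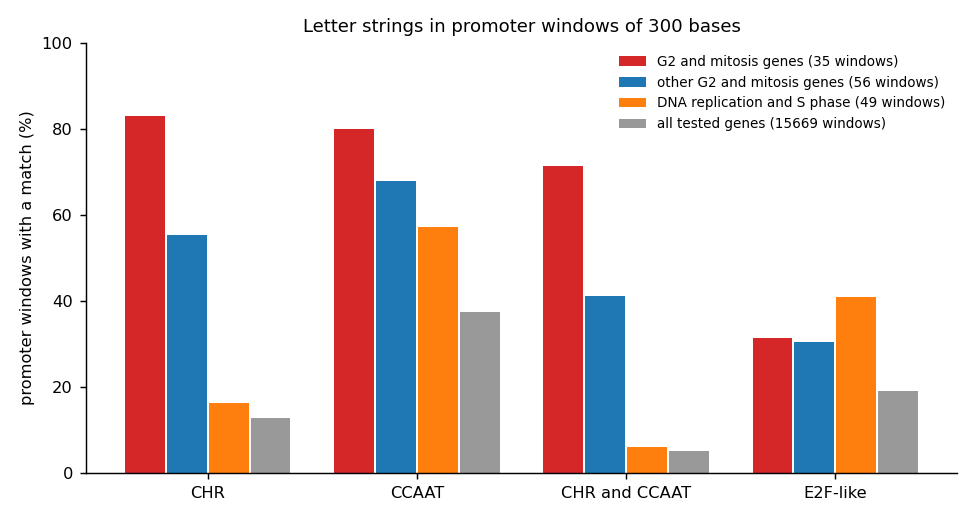
Share of RefSeq promoter windows of 300 bases that hold TTTGAA (CHR), CCAAT, both, or the E2F-like string GGCGGGA, in percent. Bars are the G2 and mitosis genes, other G2 and mitosis genes, DNA replication and S phase genes, and all tested genes. Both TTTGAA and CCAAT were in 71.4% of the windows of the G2 and mitosis genes, against 5.14% of those of all tested genes.

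The libraries held between 28811482 and 54070380 counts, and 15708 genes were tested. Levels are CPM, counts set to a common total with TMM factors. Rises and falls are changes with an adjusted p under 0.05 in edgeR's quasi-likelihood test. Ezh2 itself was at 14.2, 15.2 and 14.2 CPM in the Ezh2a mutant libraries, against 30.5, 30.4 and 30.1 CPM in the Ezh2a wild type. It was at 35.4, 33.6 and 36.4 CPM in the Ezh2b mutant libraries, against 33.8, 35.8 and 35.3 CPM in the Ezh2b wild type. Ezh2 thus fell in the Ezh2a mutant (log2 fold change -1.07, adjusted p = 3.4e-11) and its gene-level count did not separate the Ezh2b groups (log2 fold change 0.00, adjusted p = 0.969). Counts per gene cannot show which isoform is made. The 12 fibroblast marker genes were detected in every group, with Col1a1 averaging 18823 CPM in the Ezh2a mutant. Replicate 3 of the Ezh2b wild type stood apart from its partners, with a mean chi-square per gene of 11.3 and 12.4 against them, where no other pair within a group exceeded 4.67. This replicate was also the deepest library, at 54070380 counts, and a chi-square taken on raw counts can grow with depth.

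Of the 40 genes, 37 rose in the Ezh2a mutant and 0 fell, against 9.61% of all tested genes that rose and 10.2% that fell. The median log2 fold change of the 40 was 0.26, about 1.19-fold, with a range of 0.10 to 0.41, and the median of all tested genes was -0.0015. In the Ezh2b mutant 0 rose and all 40 fell, against 14.0% of all tested genes that rose and 12.1% that fell. Their median log2 fold change was -0.36, a ratio of 0.776 to the wild type, with a range of -0.52 to -0.25. Scaling by library totals in place of TMM left these directions as they were, but it moved the split over all tested genes, with 2061 up and 1117 down against 1509 and 1609 in the Ezh2a comparison, and 1910 up and 2525 down against 2200 and 1905 in the Ezh2b comparison. In 39 of the 40 genes all 3 Ezh2a mutant libraries lay above all 3 Ezh2a wild-type libraries, a separation found upward in 18.3% of all tested genes. All 40 had every Ezh2b mutant library below every Ezh2b wild-type library, which held for 17.9% of all tested genes. Without Ezh2b wild-type replicate 3, still 40 fell. The summed level of the 40 was 2357 to 2480.4 CPM in the Ezh2a mutant libraries and 1986 to 2066 CPM in the Ezh2a wild type. It was 1999 to 2084 CPM in the Ezh2b mutant libraries and 2576 to 2665 CPM in the Ezh2b wild type.

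**Figure D2:**
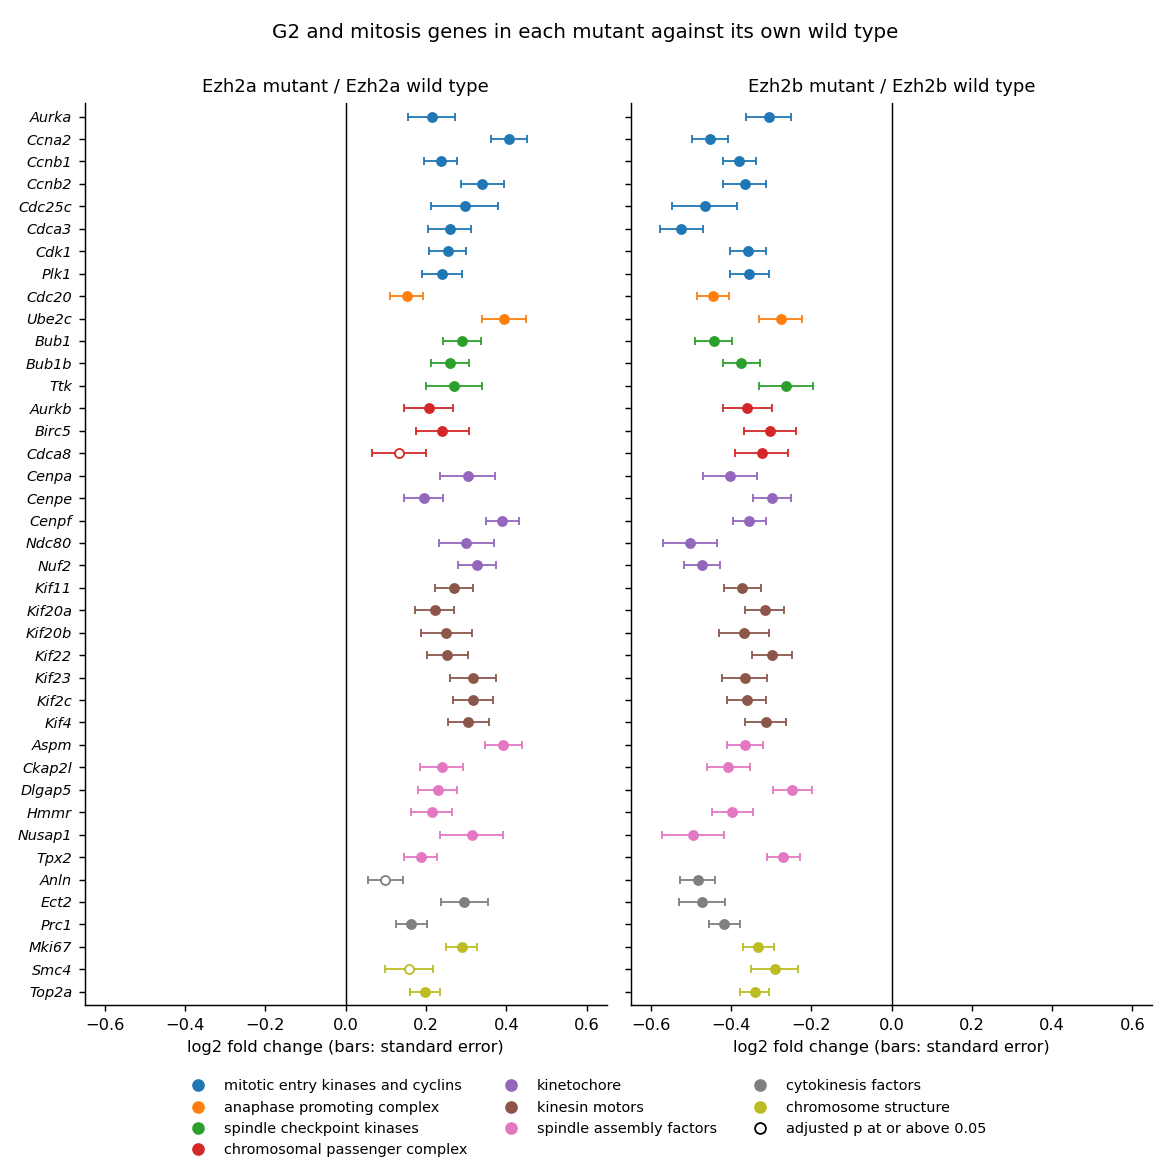
Log2 fold change of each G2 and mitosis gene in the Ezh2a mutant and in the Ezh2b mutant against its own wild type, with standard errors as bars, ordered and coloured by role; open points have an adjusted p at or above 0.05. All points lie right of 0 for the Ezh2a mutant, 3 of them open, and all lie left of 0 for the Ezh2b mutant.

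Among the kinases, cyclins and regulators of mitotic entry, 8 of the 40, all 8 rose in the Ezh2a mutant and all 8 fell in the Ezh2b mutant. Cdk1 (chromosome 10, 69335146 to 69352938, GENCODE M21 on GRCm38), the kinase that drives mitotic entry, was at 53.0, 56.7 and 53.1 CPM in the Ezh2a mutant libraries, against 43.6, 46.8 and 46.3 CPM in their wild type. It was at 45.1, 46.8 and 49.2 CPM in the Ezh2b mutant libraries, against 59.0, 60.004 and 61.5 CPM in their wild type. Neither mutant overlapped its own wild type, the Ezh2a mutant lying above and the Ezh2b mutant below. The log2 fold changes were 0.25 (adjusted p = 4.3e-04, SE 0.05) and -0.36 (adjusted p = 4.0e-06, SE 0.04) for the Ezh2a and the Ezh2b mutant. Ccnb1, the cyclin B1 partner of CDK1, was at 62.2, 58.4 and 62.1 CPM in the Ezh2a mutant, against 49.8, 52.6 and 52.8 CPM in the Ezh2a wild type, a log2 fold change of 0.24 (adjusted p = 4.0e-04, SE 0.04). Its Ezh2b mutant level was 55.1, 54.6 and 56.7 CPM, against 69.7, 74.1 and 72.7 CPM in the Ezh2b wild type, a log2 fold change of -0.38 (adjusted p = 6.0e-07, SE 0.04). The lowest mutant library of the Ezh2a set was above its highest wild-type library, and in the Ezh2b set the order was turned round.

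Ccna2 (chromosome 3, 36564865 to 36572150), cyclin A2, which partners CDK2 in S phase and CDK1 in G2, had the largest rise of the 40 in the Ezh2a mutant. It was at 84.7, 86.7 and 87.6 CPM in the Ezh2a mutant libraries, against 62.5, 67.4 and 65.6 CPM in the Ezh2a wild type, a log2 fold change of 0.41 (adjusted p = 2.0e-06, SE 0.05). The Ezh2b mutant libraries had 63.6, 63.6 and 65.2 CPM, against 81.3, 89.0 and 92.5 CPM in the Ezh2b wild type, a log2 fold change of -0.45 (adjusted p = 1.8e-07, SE 0.04). The Ezh2b mutant libraries thus lay within the range of the Ezh2a wild type, and the Ezh2a mutant libraries within that of the Ezh2b wild type. Cdca3 (chromosome 6, 124829547 to 124833701), an F-box-like protein that helps to degrade the CDK1 inhibitor WEE1, fell the most of the 40 in the Ezh2b mutant. Its level was 22.6, 22.8 and 23.2 CPM in the Ezh2b mutant libraries, against 34.4, 31.7 and 32.5 CPM in the Ezh2b wild type, a log2 fold change of -0.52 (adjusted p = 2.2e-07, SE 0.05). In the Ezh2a set it was at 29.2, 29.3 and 26.9 CPM in the mutant, against 23.0, 24.9 and 23.6 CPM in the wild type, a log2 fold change of 0.26 (adjusted p = 0.00157, SE 0.05). Cdc25c, a phosphatase that removes the inhibitory phosphates from CDK1, was the lowest of the 40 per length, at a mean of 1.70 CPM per kb of exon in the Ezh2a mutant. It had 8.36, 8.43 and 8.27 CPM in the Ezh2a mutant libraries, against 7.02, 6.62 and 6.75 CPM in the Ezh2a wild type, a log2 fold change of 0.30 (adjusted p = 0.0169, SE 0.08). It had 7.998, 7.44 and 6.75 CPM in the Ezh2b mutant libraries, against 9.96, 10.5 and 10.1 CPM in the Ezh2b wild type, a log2 fold change of -0.47 (adjusted p = 2.0e-04, SE 0.08). Each set kept its mutant and wild-type libraries apart. The Ezh2a rise missed the threshold without Ezh2a wild-type replicate 2 or 3, at 0.28 (adjusted p = 0.0619) and 0.29 (adjusted p = 0.0504). Ccnb2, Plk1 (a kinase of mitotic entry and spindle function) and Aurka (a centrosome kinase) had log2 fold changes of 0.21 to 0.34 in the Ezh2a mutant and -0.37 to -0.31 in the Ezh2b mutant. Aurka did not pass in the Ezh2a mutant without Ezh2a wild-type replicate 3, at 0.17 (adjusted p = 0.0788).

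Both members that act with the anaphase promoting complex rose in the Ezh2a mutant and fell in the Ezh2b mutant. Ube2c, the E2 enzyme of the complex, was at 38.5, 39.0 and 37.3 CPM in the Ezh2a mutant, against 29.0, 28.2 and 29.97 CPM in the Ezh2a wild type, a log2 fold change of 0.39 (adjusted p = 2.9e-05, SE 0.05). The Ezh2b mutant libraries had 37.4, 33.2 and 32.3 CPM, against 39.6, 42.9 and 41.8 CPM in the Ezh2b wild type, a log2 fold change of -0.28 (adjusted p = 5.2e-04, SE 0.05). Cdc20, the activator that the spindle checkpoint restrains, showed the reverse balance, with a small rise and a large fall. It was at 52.6, 53.8 and 55.4 CPM in the Ezh2a mutant, against 47.8, 49.2 and 48.7 CPM in the Ezh2a wild type, a log2 fold change of 0.15 (adjusted p = 0.0122, SE 0.04). The Ezh2b mutant had 55.5, 51.2 and 54.7 CPM, against 72.9, 74.4 and 72.1 CPM in the Ezh2b wild type, a log2 fold change of -0.45 (adjusted p = 4.7e-08, SE 0.04). No library of either mutant crossed into the range of its own wild type for these genes. The Cdc20 rise missed the threshold without Ezh2a mutant replicate 3, at 0.14 (adjusted p = 0.0553), and without Ezh2a wild-type replicate 1, at 0.14 (adjusted p = 0.0570).

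The checkpoint kinases Bub1, Bub1b and Ttk, which delay anaphase until every kinetochore is attached, rose by log2 fold changes of 0.26 to 0.29 in the Ezh2a mutant and had changes of -0.44 to -0.26 in the Ezh2b mutant, all past the threshold. Of the chromosomal passenger complex, which corrects faulty attachments, the kinase Aurkb and the survivin gene Birc5 rose in the Ezh2a mutant, with log2 fold changes of 0.21 (adjusted p = 0.0212) and 0.24 (adjusted p = 0.0123). Cdca8, the borealin subunit, did not pass in the Ezh2a mutant: it was at 24.3, 26.9 and 27.7 CPM there, against 22.1, 25.3 and 24.7 CPM in the Ezh2a wild type, a log2 fold change of 0.13 (adjusted p = 0.195, SE 0.07). The Aurkb rise missed the threshold without Ezh2a mutant replicate 3, or without Ezh2a wild-type replicate 1 or 3, at 0.18, 0.18 and 0.21 (adjusted p = 0.0926, 0.100 and 0.0544). Cdca8 was the one gene of the 40 whose Ezh2a mutant and wild-type libraries overlapped. In the Ezh2b mutant all 3 fell, Cdca8 by 0.32 on the log2 scale.

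All 5 kinetochore members rose in the Ezh2a mutant and fell in the Ezh2b mutant. Cenpf, a large outer kinetochore and nuclear matrix protein that accumulates in G2, was at 68.0, 67.6 and 72.0 CPM in the Ezh2a mutant, against 51.6, 54.5 and 52.5 CPM in the Ezh2a wild type, a log2 fold change of 0.39 (adjusted p = 1.1e-06, SE 0.04). Its level in the Ezh2b mutant was 48.2, 49.2 and 50.3 CPM, against 60.8, 63.2 and 64.7 CPM in the Ezh2b wild type, a log2 fold change of -0.35 (adjusted p = 1.6e-06, SE 0.04). Ndc80 and Nuf2 encode partner subunits of the complex that grips microtubule ends, and their changes were close in size. Ndc80 was at 21.1, 19.9 and 21.2 CPM in the Ezh2a mutant, against 15.5, 18.9 and 16.2 CPM in the Ezh2a wild type, a log2 fold change of 0.30 (adjusted p = 0.00358, SE 0.07). It was at 15.6, 16.2 and 16.5 CPM in the Ezh2b mutant, against 22.2, 22.9 and 23.4 CPM in the Ezh2b wild type, a log2 fold change of -0.50 (adjusted p = 1.0e-05, SE 0.07). Nuf2 had log2 fold changes of 0.33 in the Ezh2a mutant and -0.47 in the Ezh2b mutant. Cenpa, the centromere histone, and Cenpe, a kinetochore motor, had 0.30 and 0.19 in the Ezh2a mutant and -0.40 and -0.30 in the Ezh2b mutant. The Cenpe rise missed the threshold without Ezh2a wild-type replicate 1, at 0.16 (adjusted p = 0.0510).

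The 7 kinesin motors all rose in the Ezh2a mutant, by log2 fold changes of 0.22 to 0.32, and all fell in the Ezh2b mutant, with -0.37 to -0.30. Kif11, the motor that pushes the spindle poles apart, was at 61.3 ± 1.59 CPM in the Ezh2a mutant and 50.8 ± 1.93 CPM in the Ezh2a wild type (SD, n = 3 each). It was at 48.8 ± 0.857 CPM in the Ezh2b mutant and 62.9 ± 3.98 CPM in the Ezh2b wild type. Kif23, a motor of the central spindle, changed most among the 7 in the Ezh2a mutant (0.32, adjusted p = 4.5e-04) together with the microtubule depolymerase Kif2c (0.32, adjusted p = 1.2e-04). Kif20b, another motor of the central spindle, missed the threshold in the Ezh2a mutant without Ezh2a mutant replicate 3, at 0.20 (adjusted p = 0.0534). The chromokinesins Kif4 and Kif22 had log2 fold changes of -0.31 and -0.30 in the Ezh2b mutant.

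Of the 6 spindle assembly factors, 6 rose in the Ezh2a mutant and 6 fell in the Ezh2b mutant. Aspm, a protein of spindle poles, was at 49.2, 50.7 and 52.1 CPM in the Ezh2a mutant, against 37.2, 38.8 and 39.8 CPM in the Ezh2a wild type, a log2 fold change of 0.39 (adjusted p = 3.9e-06, SE 0.05). Ezh2b mutant libraries held 39.5, 39.0 and 41.8 CPM of it, against 51.5, 49.6 and 53.3 CPM in the Ezh2b wild type, a log2 fold change of -0.36 (adjusted p = 3.7e-06, SE 0.05). Nusap1, which bundles microtubules near chromosomes, had one of the larger falls among the Ezh2b changes. It was at 17.2, 18.1 and 20.6 CPM there, against 25.9, 25.5 and 27.1 CPM in the Ezh2b wild type, a log2 fold change of -0.49 (adjusted p = 6.2e-05, SE 0.08). In the Ezh2a mutant it was at 23.9, 28.4 and 27.6 CPM, against 20.2, 20.3 and 23.7 CPM in the Ezh2a wild type, a log2 fold change of 0.31 (adjusted p = 0.00661, SE 0.08). The spindle factors Tpx2, Hmmr, Dlgap5 and Ckap2l had log2 fold changes of 0.19 to 0.24 in the Ezh2a mutant and -0.41 to -0.25 in the Ezh2b mutant.

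Of the 3 cytokinesis genes, 2 rose in the Ezh2a mutant and all 3 fell in the Ezh2b mutant. Anln (chromosome 9, 22332012 to 22389188), which encodes the actin-binding scaffold anillin of the cleavage furrow, was at 107, 105 and 115 CPM in the Ezh2a mutant, against 97.8, 104 and 104 CPM in the Ezh2a wild type, a log2 fold change of 0.10 (adjusted p = 0.137, SE 0.04). The mutant libraries lay just above the wild type without passing the test, which library totals changed, at 0.14 (adjusted p = 0.0318). In the Ezh2b mutant Anln was at 119, 108 and 113 CPM, against 152, 163 and 160.2 CPM in the Ezh2b wild type, a log2 fold change of -0.48 (adjusted p = 5.1e-08, SE 0.04). Ect2, the exchange factor that activates RhoA at the furrow, changed by 0.30 (adjusted p = 0.00106) in the Ezh2a mutant and -0.47 (adjusted p = 2.6e-06) in the Ezh2b mutant on the log2 scale. Prc1, the microtubule bundler of the midzone, changed by 0.16 (adjusted p = 0.00525) and -0.42 (adjusted p = 7.4e-08), in the same order of mutants.

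Mki67 is the proliferation antigen Ki-67, which coats mitotic chromosomes, and it had the highest level per length of the 40 in the Ezh2a mutant, 32.7 CPM per kb of exon. It was at 309, 338 and 341 CPM in the Ezh2a mutant, against 264, 277 and 268 CPM in the Ezh2a wild type, a log2 fold change of 0.29 (adjusted p = 1.4e-05, SE 0.04). For the Ezh2b mutant the values were 241, 234 and 242 CPM, against 299, 305 and 298 CPM in the Ezh2b wild type, a log2 fold change of -0.33 (adjusted p = 1.2e-06, SE 0.04). Top2a, the topoisomerase that untangles sister chromatids, was at 225, 217 and 235 CPM in the Ezh2a mutant, against 192, 197 and 202 CPM in the Ezh2a wild type, a log2 fold change of 0.20 (adjusted p = 6.2e-04, SE 0.04). It was at 181, 187 and 188 CPM in the Ezh2b mutant, against 234, 229 and 241 CPM in the Ezh2b wild type, a log2 fold change of -0.34 (adjusted p = 5.4e-07, SE 0.04). Both genes kept mutant and wild-type libraries apart in each set. Smc4, a condensin subunit, did not pass in the Ezh2a mutant, with 128, 134 and 143 CPM against 119, 119 and 125 CPM in the Ezh2a wild type, a log2 fold change of 0.16 (adjusted p = 0.0704, SE 0.06), although its libraries did not overlap. It passed with library totals, at 0.20 (adjusted p = 0.0293), without the filter on low counts (adjusted p = 0.00195) and with only the Ezh2a libraries in the model (adjusted p = 0.00318). It fell in the Ezh2b mutant by 0.29 on the log2 scale (adjusted p = 8.7e-04).

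The labels' protocol names no step that marks RNA strand, and exons of 13 of the 40 overlap those of another gene in GENCODE M21, for the most part antisense. The share of exon length is 29.3% for Kif20a with Cdc23, 22.8% for Ube2c with Tnnc2 and 15.1% for Kif4 with Pdzd11. It is 12.7% for Cdc25c with Gm3550 and 12.5% for Ccna2 with Exosc9. Reads from such stretches cannot be told apart between the partners, so the levels of these genes are less certain than that of Cdk1.

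The difference between the mutants was tested as the Ezh2b effect minus the Ezh2a effect, which use separate wild-type libraries. It was below 0 in all 40 genes and past the threshold in 40, against 11.9% of all tested genes called lower and 14.7% called higher. With library totals the split over all tested genes was 1723 higher and 2787 lower, against 2305 and 1863 with TMM. The median difference of the 40 was -0.62 on the log2 scale, with a range of -0.86 to -0.45. Ccna2, Nusap1 and Ndc80 had the largest differences, -0.86 (adjusted p = 4.3e-09, SE 0.06), -0.81 (adjusted p = 1.2e-05, SE 0.11) and -0.80 (adjusted p = 2.6e-06, SE 0.10). The smallest were those of Cdca8 and Smc4, -0.45 and -0.45. In 36 of the 40 the log2 fold change was larger in size in the Ezh2b than in the Ezh2a mutant, with a median ratio of 1.44 over the 40, which include the 3 that did not pass in the Ezh2a mutant. Across the 40 genes the sizes of the log2 fold changes in the Ezh2a and the Ezh2b mutant were barely related (Pearson r of the log2 fold changes -0.13, n = 40 genes measured in the same libraries). Ube2c, for example, was second in the Ezh2a rise and had one of the smaller Ezh2b falls, whereas Anln did not pass in the Ezh2a mutant and had one of the largest Ezh2b falls.

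**Figure D3:**
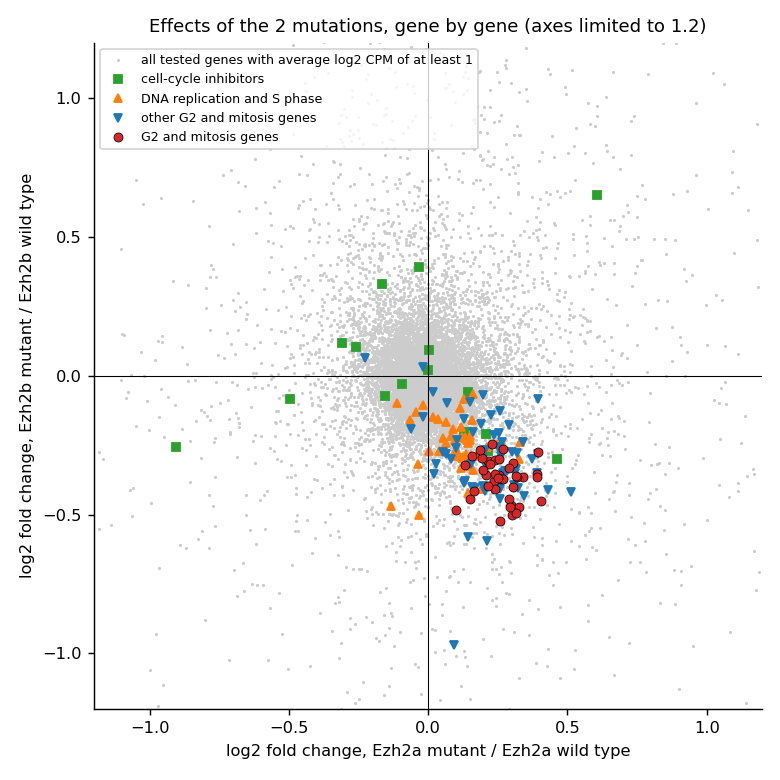
Log2 fold change in the Ezh2a mutant (x axis) and in the Ezh2b mutant (y axis), each against its own wild type, with both axes limited to ±1.2. Shown are the G2 and mitosis genes, other G2 and mitosis genes, DNA replication and S phase genes, cell-cycle inhibitors, and tested genes whose average log2 CPM reached 1. All 40 G2 and mitosis genes lie to the right of 0 on the x axis and below 0 on the y axis.

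The wild types themselves differed. Against the Ezh2a wild type, all 40 genes were higher in the Ezh2b wild type and past the threshold, with a median log2 fold change of 0.41 and a range of 0.16 to 0.64, where 20.4% of all tested genes were called higher and 21.8% lower. In all 40 the libraries did not overlap, which held upward for 23.4% of all tested genes. Without Ezh2b wild-type replicate 3, 39 passed, Smc4 being the exception at 0.11 (adjusted p = 0.0546). Anln differed most, at 152, 163 and 160.2 CPM in the Ezh2b wild type, against 97.8, 104 and 104 CPM in the Ezh2a wild type, a log2 fold change of 0.64 (adjusted p = 4.2e-10, SE 0.04). Cdc20 and Cdc25c followed with log2 fold changes of 0.59 (adjusted p = 3.6e-10, SE 0.04) and 0.58 (adjusted p = 9.4e-06, SE 0.08), and Mki67 differed least, 0.16 (adjusted p = 0.00225, SE 0.04). The set, its litters and any batch of culture or sequencing cannot be told apart here. This comparison shares the Ezh2a wild type with the Ezh2a comparison and the Ezh2b wild type with the Ezh2b comparison.

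Set in order of mean CPM, the Ezh2b wild type was the highest group in 36 of the 40 genes and the Ezh2a mutant in 4, which were Ccnb2, Cenpf, Nusap1 and Mki67. The lowest group was the Ezh2a wild type in 24 genes and the Ezh2b mutant in 16. In 26 genes the ranges of the Ezh2b mutant and the Ezh2a wild-type libraries overlapped. In 15 genes those of the Ezh2b wild type and the Ezh2a mutant did. The share of all tested genes with such overlaps was not counted, so whether these overlaps are particular to the 40 was not tested. Neighbours in this order were often no further apart than their libraries, and neither the Ezh2b mutant against the Ezh2a wild type nor the Ezh2b wild type against the Ezh2a mutant was tested. On the mean log2 CPM of the 40, the Ezh2a mutant libraries were at 5.51, 5.54 and 5.56 and the Ezh2a wild-type libraries at 5.24, 5.30 and 5.30. The Ezh2b mutant libraries were at 5.31, 5.27 and 5.33 and the Ezh2b wild-type libraries at 5.65, 5.68 and 5.69. The 12 libraries thus formed a high pair of groups, Ezh2b wild type and Ezh2a mutant, and a low pair, Ezh2b mutant and Ezh2a wild type. The high pair was not level: on this mean every Ezh2b wild-type library lay above every Ezh2a mutant library. In 25 of the 40 genes the ranges of these 2 groups did not overlap.

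**Figure D4:**
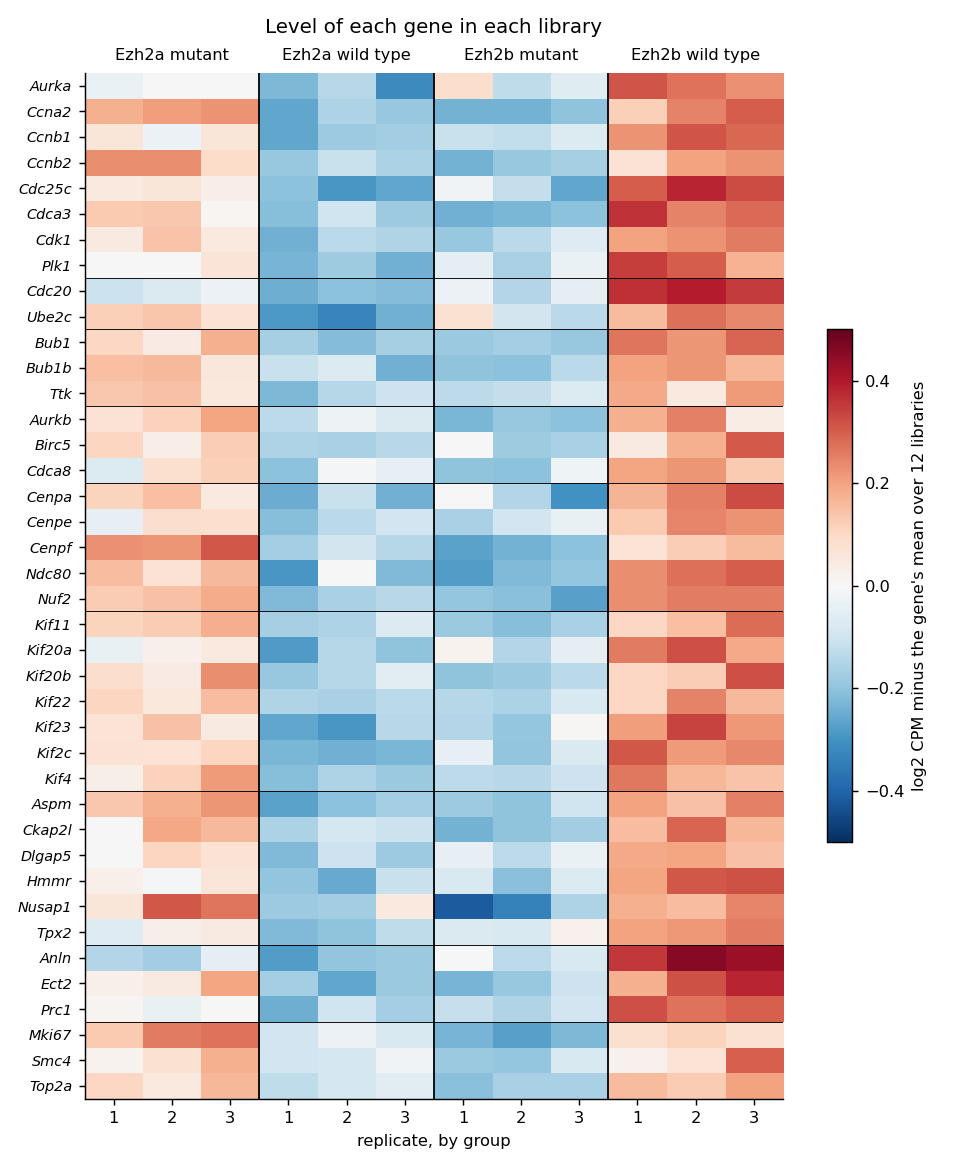
Log2 CPM of each G2 and mitosis gene in each of the 12 libraries, as the difference from the gene's mean over all libraries, with groups side by side. The Ezh2a mutant and Ezh2b wild-type libraries are above the mean in most genes, and the Ezh2a wild-type and Ezh2b mutant libraries below it.

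The genes moved together over the libraries. The Pearson r of a gene's log2 CPM with the mean of the other 39, over 12 libraries that fall into 4 groups, had a median of 0.921 and was over 0.9 in 26 genes. Cdk1 (0.974) and Bub1 (0.974) tracked the rest most closely and Mki67 (0.744), Anln (0.785) and Nusap1 (0.812) least. Within groups the mean of the 40 strayed little, from -0.036 to 0.026 on the log2 scale from its group's mean, so most of this common movement lay between groups.

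Genes of other parts of the cycle were set beside the 40. In the Ezh2a mutant 37 of 62 other G2 and mitosis genes rose and 1 fell (median log2 fold change 0.21), and 0 rose and 49 fell in the Ezh2b mutant (median -0.30). The one that fell in the Ezh2a mutant was Psrc1, a spindle protein gene that p53 is known to regulate, with a log2 fold change of -0.23 (adjusted p = 0.00333). Troap and Pbk rose most there, 0.51 (adjusted p = 2.5e-04) and 0.43 (adjusted p = 9.6e-05), and the centromere gene Cenpw and Depdc1b fell most in the Ezh2b mutant, -0.97 (adjusted p = 6.6e-05) and -0.59 (adjusted p = 0.00365). Foxm1, the transcription factor of G2 genes, was at 63.2, 61.4 and 63.8 CPM in the Ezh2a mutant, against 50.2, 52.7 and 49.0 CPM in the Ezh2a wild type, a log2 fold change of 0.31 (adjusted p = 1.7e-04, SE 0.05). Its Ezh2b mutant level was 51.8, 50.9 and 49.996 CPM, against 68.4, 67.6 and 59.2 CPM in the Ezh2b wild type, a log2 fold change of -0.35 (adjusted p = 2.0e-05, SE 0.05). Mybl2, which encodes B-MYB, passed in neither mutant, with log2 fold changes of 0.20 (adjusted p = 0.177) in the Ezh2a mutant and -0.07 (adjusted p = 0.648) in the Ezh2b mutant.

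Of 50 genes of DNA replication and S phase, 12 rose and 0 fell in the Ezh2a mutant (median log2 fold change 0.12), and 0 rose and 38 fell in the Ezh2b mutant (median -0.24). The medians were smaller in size than those of the 40, and the gap between the lists was not tested. The nucleotide synthesis gene Tyms had the largest rise in the Ezh2a mutant, a log2 fold change of 0.33 (adjusted p = 8.6e-05), and Pole2 (a polymerase epsilon subunit) and Dut (a dUTPase) fell most in the Ezh2b mutant, -0.50 (adjusted p = 4.1e-04) and -0.47 (adjusted p = 2.0e-04). Of 16 G1 cyclins, kinases and E2F factors, 3 rose and 0 fell in the Ezh2a mutant, led by the repressors E2f7 and E2f8 at 0.36 and 0.33. In the Ezh2b mutant 2 of these rose, Cdk6 (0.63, adjusted p = 4.2e-09) and Ccnd2 (0.14, adjusted p = 0.00324), and 5 fell, with Ccnd1, the cyclin D1 gene, at -0.39 (adjusted p = 1.3e-07) and Ccne2 at -0.35 (adjusted p = 0.00774).

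**Figure D5:**
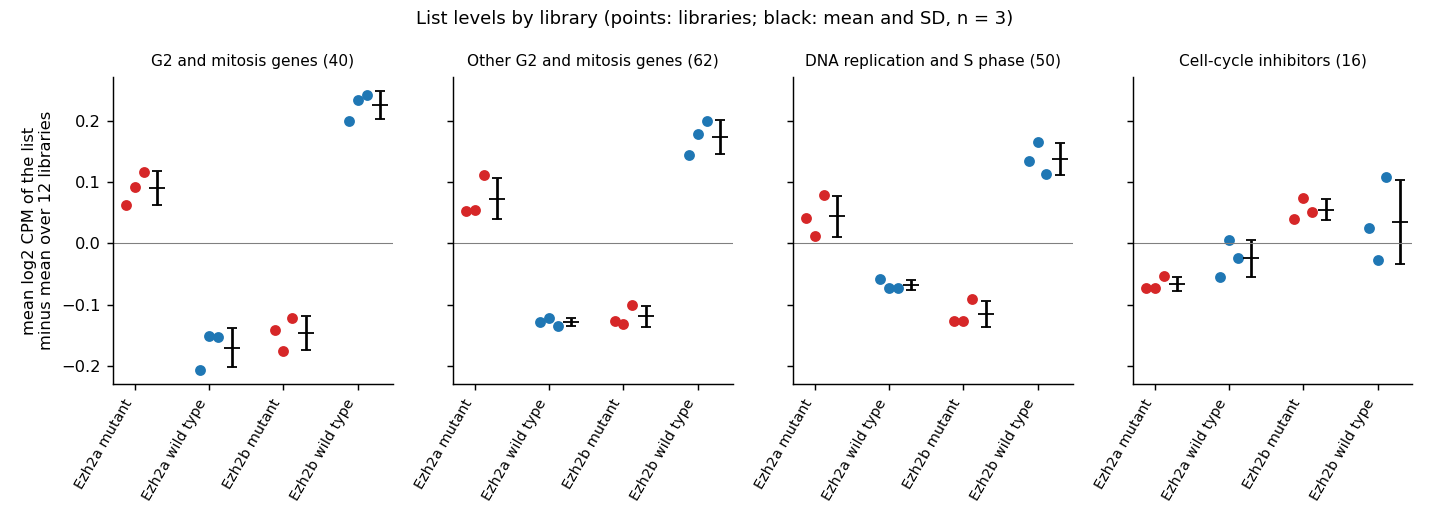
Mean log2 CPM of each gene list in each library, as the difference from its mean over 12 libraries. Lists are the G2 and mitosis genes, other G2 and mitosis genes, DNA replication and S phase genes, and cell-cycle inhibitors. Coloured points are libraries, and black marks the mean and SD of 3 libraries. The Ezh2a mutant lies above the Ezh2a wild type and the Ezh2b mutant below the Ezh2b wild type in the G2 and mitosis genes, with smaller gaps in the S phase genes.

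The 16 cell-cycle inhibitors did not move as one. In the Ezh2a mutant 3 rose and 6 fell, and in the Ezh2b mutant 4 rose and 4 fell. Cdkn2a, the Ink4a/Arf locus that Polycomb is known to repress and that restrains growth of cultured fibroblasts, was at 20.1, 20.3 and 21.5 CPM in the Ezh2a mutant, against 37.2, 39.7 and 39.1 CPM in the Ezh2a wild type, a log2 fold change of -0.90 (adjusted p = 6.3e-11, SE 0.05). The Ezh2b mutant libraries had 50.1, 51.9 and 51.6 CPM, against 59.7, 62.9 and 61.0 CPM in the Ezh2b wild type, a log2 fold change of -0.26 (adjusted p = 8.9e-05, SE 0.04). It was thus lower in both mutants, while the 40 genes were higher in one and lower in the other. In the wild types Cdkn2a went with the 40, each Ezh2b library lying above each Ezh2a library. Cdkn1a, the p21 gene, was at 239.6, 234 and 249.6 CPM in the Ezh2a mutant, against 280.2, 272 and 259 CPM in the Ezh2a wild type, a log2 fold change of -0.17 (adjusted p = 0.00414, SE 0.04). Its level in the Ezh2b mutant was 402, 387 and 402 CPM, against 313, 328 and 305 CPM in the Ezh2b wild type, a log2 fold change of 0.33 (adjusted p = 1.4e-06, SE 0.04). Its direction was opposite to that of the 40 in each mutant. Between the wild types it went with the 40, every Ezh2b wild-type library lying above every Ezh2a wild-type library. Cdkn1c, the p57 gene, rose in both, 0.61 (adjusted p = 5.2e-04) in the Ezh2a and 0.65 (adjusted p = 2.0e-04) in the Ezh2b mutant. Cdkn2c, the p18 gene, which is itself known to be cell-cycle regulated, went with the 40, 0.46 (adjusted p = 1.3e-04) and -0.30 (adjusted p = 0.00429) in the same order. Btg2, an antiproliferative p53 target, fell in the Ezh2a mutant (log2 fold change -0.50, adjusted p = 6.6e-08), and in the Ezh2b mutant Gadd45a rose (0.39, adjusted p = 3.6e-06) and Cdkn1b, the p27 gene, fell (-0.27, adjusted p = 0.00239).

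Marker genes of fibroblasts and of other cell types were set beside these changes. The 12 fibroblast markers summed to 64687 to 66333 CPM in the Ezh2a mutant and 67858 to 69315 CPM in the Ezh2a wild type (3 rose, 3 fell), and to 67177 to 68831 CPM in the Ezh2b mutant and 58333 to 63576 CPM in the Ezh2b wild type (9 rose, 2 fell). The 14 macrophage markers, none of them at 0 in a group, summed to 1549 to 1661 CPM in the Ezh2a mutant and 1687 to 1737 CPM in the Ezh2a wild type, where 2 rose and 3 fell. They summed to 481 to 515 CPM in the Ezh2b mutant and 103 to 115 CPM in the Ezh2b wild type, and all 14 rose. Between the wild types, all 14 macrophage markers were lower in the Ezh2b set, with a median log2 fold change of -3.72. Over all tested genes 21.8% were called lower in that comparison. The macrophage sum was also lower in the Ezh2b mutant than in the Ezh2a wild type, which was not tested. The 7 mesothelial markers summed to 59.2 to 64.2 CPM in the Ezh2a mutant and 102 to 108 CPM in the Ezh2a wild type, with 7 lower, and to 48.9 to 50.8 CPM in the Ezh2b mutant and 33.1 to 40.3 CPM in the Ezh2b wild type, where 6 rose and 1 fell. The one that fell, Krt19, made up much of that sum, at 15.1 ± 1.19 CPM in the Ezh2b mutant and 24.6 ± 3.09 CPM in the Ezh2b wild type (SD, n = 3 each), and the median log2 fold change of the 7 was 2.23. The 5 chondrocyte markers summed to 172 to 188 CPM in the Ezh2a mutant and 25.2 to 26.7 CPM in the Ezh2a wild type, with all 5 higher, and to 20.8 to 23.2 CPM in the Ezh2b mutant and 23.1 to 24.3 CPM in the Ezh2b wild type, where 1 rose and 1 fell. The 7 epithelial markers summed to 2.23 to 2.53 CPM in the Ezh2a mutant, 14.1 to 15.6 CPM in the Ezh2a wild type, 2.73 to 3.66 CPM in the Ezh2b mutant and 1.57 to 1.79 CPM in the Ezh2b wild type, and Krt5 was at 0 in all but the Ezh2b mutant. Of the 4 that could be tested, 2 fell in the Ezh2a mutant and 2 rose in the Ezh2b mutant. The 6 endothelial markers summed to 10.3 to 11.03 CPM in the Ezh2a mutant and 14.7 to 16.6 CPM in its wild type, 7.13 to 7.86 CPM in the Ezh2b mutant and 13.5 to 15.4 CPM in its wild type, with Cdh5 at 0 in the Ezh2b wild type. Of 4 tested, the Ezh2a mutant had 1 higher and 1 lower, and the Ezh2b mutant 2 higher and 2 lower. Of the 6 skeletal muscle markers Myod1 and Myh3 were at 0 in every group, and the list summed to 39.4 to 42.6 CPM in the Ezh2a mutant and 116 to 124 CPM in its wild type, 60.3 to 66.4 CPM in the Ezh2b mutant and 30.5 to 40.003 CPM in its wild type. The 2 that could be tested, Des and Acta1, made up nearly all of the sum. Both fell in the Ezh2a mutant, and in the Ezh2b mutant Des rose and Acta1 did not pass. The part of these cell types in the changes of the 40 genes was not tested.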

How the data were processed

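Poly-A RNA of MEFs was sequenced in 12 libraries, 3 in each of 4 groups. The authors deposited whole-number counts per gene symbol, and per the submitters' processing notes the tools were edgeR 4.2.1, StringTie 2.1.5, HISAT2 2.1.0 and fastp 0.21.0, on GRCm38 (mm10). Which program counted the reads, with which annotation and strand setting, is not given in the sources used here. Since the value 1 occurs 3357 times and the value 2 occurs 13267 times, fragments may have been counted more than once, and halved counts were tried. Columns were matched to libraries by the samples' own descriptions.

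Genes were filtered with filterByExpr, which left 15708, and scaled by TMM (factors 0.977 to 1.03). One model with a mean per group and 8 residual degrees of freedom was fitted to all libraries with edgeR 4.0.16 in R 4.3.3. Adjusted p-values of genes are those of edgeR's quasi-likelihood test with Benjamini-Hochberg adjustment over all tested genes, at a threshold of 0.05. The script was checked on simulated data for the Ezh2a comparison, where 63.7% of 1.25-fold changes were recovered. Changes below 1.25-fold were not simulated, so the check does not cover them. An SE was obtained by dividing a log2 fold change by the root of its F statistic. Lists are described by counts and medians with no test of their own. The 40 genes, the other lists and the marker lists were chosen with earlier results of these data known. Genes given in every library are Cdk1, Ccnb1, Ccna2, Mki67 and Top2a, the 4 largest changes per mutant and direction, the 3 largest differences and wild-type differences, and genes that did not pass, where 8 or fewer. From each other list the 2 largest rises and falls per mutant are named, with Cdkn2a, Cdkn1a, Foxm1 and Mybl2 always; 1 gene that this rule names is not reported here. Positions and exon lengths are from GENCODE M21 on GRCm38, and promoters from RefSeq on GRCm38.p6. Alternatives were DESeq2's size factors and its test, library totals, no filter, a replicate block, the groups of a comparison alone, and leaving out each library.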

Additional observations from a re-analysis of the deposited data

Results flagged for a closer look

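These results are given because the Ezh2b and the Ezh2a effect differed by the test of the difference itself, in edgeR's quasi-likelihood test. The Ezh2b effect was below the Ezh2a effect in 40 of the 40 G2 and mitosis genes, in 37 of 50 S phase genes, and in 52 of 62 other G2 and mitosis genes, of which 1 was higher. Among the 16 G1 cyclins, kinases and E2F factors 6 were lower and 2 higher, and among the 16 inhibitors 4 were lower and 6 higher. Over all tested genes 11.9% were called lower and 14.7% higher. On the log2 scale the difference was -0.86 for Ccna2, -0.81 for Nusap1, -0.80 for Ndc80 and -0.66 for Foxm1. It was 0.65 for Cdkn2a, 0.50 for Cdkn1a and 1.07 for Ezh2.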

How the results depend on the processing

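The count of the 40 genes that rose in the Ezh2a mutant was 37 to 39 over the alternatives and 34 to 37 when 1 library was left out. The 40 falls in the Ezh2b mutant and the 40 negative differences stood under every alternative run, and the 40 higher levels in the Ezh2b wild type were 39 only without Ezh2b wild-type replicate 3. No direction of a member reversed. Library totals moved the median log2 fold change of the 40 to 0.30 in the Ezh2a mutant, -0.40 in the Ezh2b mutant and -0.69 for the difference. The wild-type median was 0.39 without Ezh2a wild-type replicate 1. The labels state no pairing of libraries by replicate number. Deviations of libraries with the same number correlated at -0.049, -0.025 and -0.021 in the Ezh2a set and -0.139, 0.012 and -0.089 in the Ezh2b set. Unlike numbers gave values such as 0.197 and -0.131 in the Ezh2b set. Deviations from a mean of 3 libraries are tied to each other, so this check cannot decide whether libraries are paired. With a replicate block 38 genes rose in the Ezh2a mutant, Smc4 being the addition (adjusted p = 0.00904 in edgeR's quasi-likelihood test), and 40 fell in the Ezh2b mutant. The difference between effects uses all groups, so the setting with only the groups of a comparison gives no value for it. With a promoter window from 150 bases before to 50 after the start, both strings were in 71.4% of the members' windows, against 2.44% of those of all tested genes.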

Other observations

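Outside the 40, the 10 tested genes whose log2 CPM followed the mean of the 40 most closely over the 12 libraries were ranked by Pearson r, as a description of libraries that fall into 4 groups. Rnf187, a ubiquitin ligase gene, came first at 0.990. It was at 114, 113 and 115 CPM in the Ezh2a mutant, against 104, 107 and 106 CPM in the Ezh2a wild type, and at 107, 106 and 107 CPM in the Ezh2b mutant, against 121, 120.5 and 122 CPM in the Ezh2b wild type. Its changes were smaller in size than the medians of the 40, with log2 fold changes of 0.11 in the Ezh2a mutant and -0.19 in the Ezh2b mutant. Rnf187 was picked from these same libraries, so the directions of its changes followed from the choice. Knl1 (0.974) and Sgo2a (0.961) act at kinetochores and centromeres, Xrcc2 (0.959) acts in recombination, and Cables1 (0.964) encodes a CDK-binding protein. The others were Nrk (0.974), Add3 (0.970), Adgrg2 (0.963), Snx25 (0.962) and Sgcd (0.958).

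Genes with both promoter strings were also counted outside the lists. Among 700 tested genes in none of the lists whose promoter windows hold both TTTGAA and CCAAT, 12.1% were higher and 10.3% lower in the Ezh2a mutant, with a median log2 fold change of 0.01. In the Ezh2b mutant 12.6% rose and 14.6% fell, with a median of -0.02. Among 11388 such genes without both strings, 8.64% were higher and 10.3% lower in the Ezh2a mutant, and 13.9% higher and 11.3% lower in the Ezh2b mutant.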
